A study of Mus musculus with 6 samples.

Results

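Il1b and 9 other genes of acute inflammation were followed in RNA-seq libraries from the epithelial fraction of the mouse colon. The genes were Il1a, Il1b and Il1rn of the interleukin 1 family, the alarmins S100a8 and S100a9, the chemokine gene Cxcl2, the cytokine gene Tnf, the prostaglandin synthase gene Ptgs2, and the innate sensors Cd14 and Nlrp3. They are 10 of the 46078 genes in the count table, chosen by name with the difference between the genotypes in these same libraries already known. Their difference between genotypes is therefore given as a description and not as a test. Of the 10, 5 are listed in the authors' deposited comparison table and 5 (Il1a, S100a8, S100a9, Cxcl2 and Nlrp3) are not and were read as raw counts. The lowest mean normalised count in the authors' deposited table was 15.7, and on the same scale the 5 unlisted genes had means of 4.01 to 14.9.

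The libraries came from mice of 2 months of age kept under naive conditions, 3 from wild type animals and 3 from Lingo3-/- animals, which lack both copies of a gene for a transmembrane protein with leucine-rich repeats. Epithelial cells were washed from the tissue with EDTA and DTT and total RNA was depleted of ribosomal RNA. The label of wild type replicate 1 names both reagents and those of the other 5 libraries name EDTA alone. The labels do not say whether each library is a separate animal, so the spread between libraries may be technical.

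Interleukin 1 alpha and beta are cytokines that bind the same receptor, IL-1R1, and the product of Il1rn is a receptor antagonist that occupies it without signalling. Transcription of Il1b is induced through Toll-like receptors, for which CD14 is a co-receptor that hands over bacterial lipopolysaccharide, and the inactive precursor is cut by caspase-1 in inflammasomes such as the one built by NLRP3. In the gut these genes are best known from neutrophils, monocytes and macrophages that enter inflamed mucosa, although several of them can also be expressed by epithelial cells.

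Counts over genes ran from 25010618 to 28029583 in wild type and from 11868000 to 17200931 in knockout libraries, and all levels below are counts per effective library size (CPM, with TMM factors). Mitochondrial transcripts took 45.3 to 48.4% of each wild type library and 34.7 to 36.3% of each knockout library. Lingo3 had 3, 3 and 1 counts in wild type and 2, 0 and 1 in knockout libraries, too few to check the labels. The 14 epithelial markers summed to 15713 to 16188 CPM in wild type and 16440 to 18566 CPM in knockout. Knockout replicate 1 stood apart in macrophage genes, with 161 CPM of the lysozyme gene Lyz2 against 28.1 and 84.6 in knockout replicates 2 and 3 and 51.5 to 62.8 in wild type.

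The 250 bases before the RefSeq transcription start (GRCm38.p6) were read for the 7 genes with a single start in the table, and those of 4 genes with lower counts in knockout are shown, because genes that are low together are a natural place to look for shared elements. They lie at chr2:129371140-129371389 (minus strand), chr3:90695722-90695971 (minus strand), chr5:90903649-90903870 (plus strand, stopped before the first annotated exon) and chr1:150099781-150100030 (plus strand). Capitals mark matches, on either strand, to TATAAA, to an NF-kB-like motif (GGGA and CC with 4 bases of any kind between them), to the AP-1 motif TGANTCA, to the C/EBP-like TTGCNNAA or to the CRE motif TGACGTCA.
Il1b: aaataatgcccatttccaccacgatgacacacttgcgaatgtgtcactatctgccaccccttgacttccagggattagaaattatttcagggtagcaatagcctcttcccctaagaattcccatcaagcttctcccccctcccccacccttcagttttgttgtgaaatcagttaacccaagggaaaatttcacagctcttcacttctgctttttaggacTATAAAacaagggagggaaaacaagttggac
S100a9: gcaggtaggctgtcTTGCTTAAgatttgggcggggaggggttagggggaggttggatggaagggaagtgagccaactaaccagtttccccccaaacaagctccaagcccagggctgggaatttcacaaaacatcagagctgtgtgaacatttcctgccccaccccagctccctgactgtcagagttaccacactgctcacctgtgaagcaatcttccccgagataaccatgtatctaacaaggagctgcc
Cxcl2: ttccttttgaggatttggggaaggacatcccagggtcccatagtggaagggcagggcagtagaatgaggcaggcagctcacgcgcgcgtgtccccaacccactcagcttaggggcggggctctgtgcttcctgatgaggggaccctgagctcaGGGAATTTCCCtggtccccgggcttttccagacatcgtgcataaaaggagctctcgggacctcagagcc
Ptgs2: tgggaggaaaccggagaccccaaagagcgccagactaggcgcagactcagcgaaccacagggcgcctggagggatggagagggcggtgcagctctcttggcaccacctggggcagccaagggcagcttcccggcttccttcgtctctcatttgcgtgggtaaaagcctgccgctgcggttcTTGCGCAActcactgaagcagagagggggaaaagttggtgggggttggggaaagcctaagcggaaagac
No single motif was matched in all 4, nor in all 6 lower genes, of which Il1a and S100a8 were searched but are not shown. TATAAA stood 31 to 26 bases before the start of Il1b and was matched in 4 of the 7 genes searched (Il1a, Il1b, S100a8 and Tnf), against 12.4% of 32841 promoters of the same length. In S100a8 the match lies before the RefSeq start but after the first base that GENCODE gives to the gene. The NF-kB-like letters were matched in Cxcl2 alone, by a pair of matches on opposite strands that share all but their end bases, against 17.6% of all promoters. The C/EBP-like letters were matched in Ptgs2 and S100a9 (9.57% of all promoters), the AP-1 letters in Il1a (6.75%) and the CRE letters in 0 of the 7 (1.55%). A match is only a run of letters, and a missing match says nothing of the factor.

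Il1b, the gene of interleukin 1 beta, varied least of the 10 in wild type, relative to its mean, and was close to undetected in knockout. A spread this small at 47 to 55 counts lies within counting error and is not read as a trait of the gene. Its counts were 47, 55 and 54 in the wild type libraries and 2, 6 and 1 in the knockout libraries, each in the order of replicates 1 to 3, as for all genes below. Every wild type library stood above every knockout library, and knockout replicate 2 was the highest of its group. Its mean level was 2.20 ± 0.134 CPM (SD, n = 3) with Lingo3 intact and 0.167 ± 0.131 CPM (SD, n = 3) without it, where the floor of 3 counts is worth 0.154 to 0.240 CPM. Summed over libraries, the knockout level was 8.06% of the wild type level, with an exact 95% counting interval of 3.62 to 15.7%. The fitted log2 fold change was -3.60 ± 0.41 (SE, edgeR), and the authors' deposited table gave -3.63 with a standard error of 0.61. Without knockout replicate 2 the fitted value was -4.46, and without knockout replicate 1 it was -3.28. The gene spans chr2:129364570-129371139 (GRCm38, minus strand), and the antisense gene Il1bos shares 25 exonic bases with it and had 1, 0 and 2 counts in wild type and 0 in each knockout library.

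Il1a, the gene of interleukin 1 alpha, lies 54.6 kb from Il1b on the same strand. It had 10, 13 and 19 counts in wild type and 5, 6 and 4 in knockout libraries. The groups did not overlap, although wild type replicates 1 and 2, at 0.468 and 0.490 CPM, were nearer to the knockout libraries, at 0.257 to 0.320 CPM, than to wild type replicate 3 at 0.824 CPM. Its knockout level was 49.9% of the wild type level (95% counting interval 25.7 to 91.9%). This interval covers counting error only and not the spread between libraries. The gene Gm14023 on the opposite strand shares 222 exonic bases with Il1a and had 3 to 10 counts per library. Whether the counting used the strand is not given in the sources used here, so the reads of the pair cannot be told apart.

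Il1rn, the gene of the receptor antagonist, went the other way. It had 266, 176 and 181 counts in wild type and 309, 338 and 185 in knockout libraries, which is 12.4, 6.64 and 7.85 CPM against 15.9, 17.9 and 14.8 CPM. All knockout libraries were above all wild type libraries, and wild type replicate 1, the library with the differing wash label, was the nearest to them. The fitted log2 fold change was 0.86 ± 0.21 (SE, edgeR; 0.87 with a standard error of 0.21 in the authors' deposited table). Without wild type replicate 1 it was 1.19, and over the 14 other settings it ran from 0.70 to 1.19.

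The ratio of antagonist to agonist transcript was higher in each knockout library than in any wild type library. Per kilobase of merged exon, Il1rn stood at 1.95, 1.10 and 1.15 times the level of Il1b in the wild type libraries. In the knockout libraries the same ratio was 53.2, 19.4 and 63.7, resting on 2, 6 and 1 counts of Il1b. Against Il1a, the ratio was 3.40 to 9.49 in wild type and 16.5 to 22 in knockout. The merged exons of Il1rn span 5535 bases over several isoforms, against 1907 for Il1b, so the size of the ratio depends on which isoforms are used.

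**Figure D1:**
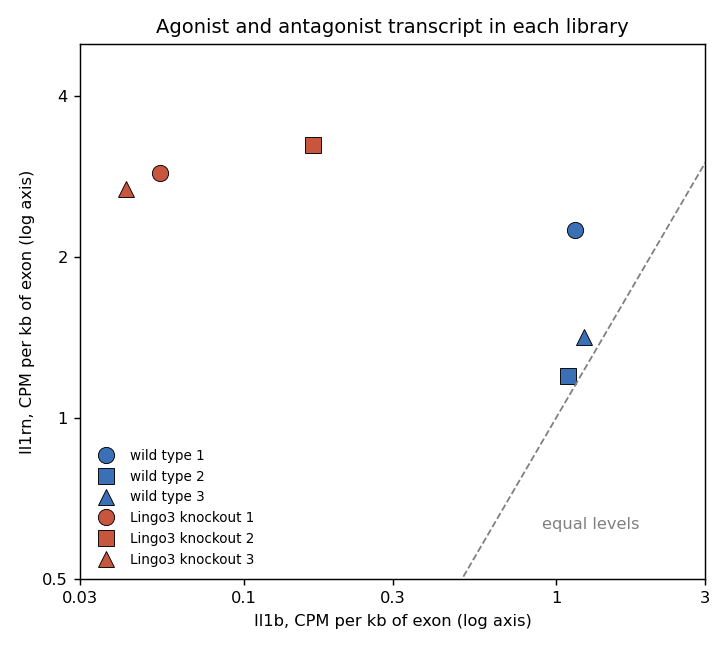
Level of Il1b (x axis) and of Il1rn (y axis) in each of the 6 libraries, in CPM per kilobase of merged exon on log axes, with colour for the genotype, symbol for the replicate and a dashed line where both levels are equal. The 3 wild type libraries lie above the line, at ratios of 1.10 to 1.95, and the 3 knockout libraries far above it, at 19.4 to 63.7.

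The alarmin genes S100a8 and S100a9, whose products pair as calprotectin in neutrophil and monocyte cytoplasm, lie 22.6 kb apart on chromosome 3. S100a8 had 10, 26 and 27 counts in wild type and 6, 1 and 1 in knockout libraries. S100a9 had 23, 34 and 38 counts in wild type and 6, 3 and 1 in knockout libraries. For both genes wild type replicate 1 was the lowest of its group and knockout replicate 1 the highest of its group, and the groups did not overlap. For S100a8 the nearest libraries were at 0.468 and 0.309 CPM. The knockout level was 17.7% of wild type for S100a8 (95% counting interval 7.34 to 37.2%) and 14.7% for S100a9 (6.83 to 28.3%). Only S100a9 had enough counts for the fit, through its wild type libraries, with a log2 fold change of -2.74 ± 0.44 (SE, edgeR), or -3.33 without knockout replicate 1.

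Cxcl2, whose product draws neutrophils through the receptor CXCR2, was the least abundant of the lower genes. It had 7, 12 and 8 counts in wild type, and in knockout 2 counts in replicate 1 and 0 in replicates 2 and 3. With 3 counts as the floor, the absence in knockout replicates 2 and 3 allows up to 0.159 and 0.240 CPM, below the 0.327 to 0.452 CPM of wild type. Over all libraries the knockout level was 10.4% of wild type, with a 95% counting interval of 1.19 to 41.2%. Tnf, the gene of tumour necrosis factor, did not separate the genotypes. Its counts were 98, 123 and 86 in wild type and 113, 58 and 37 in knockout libraries, or 3.73 to 4.64 CPM against 2.96 to 5.82 CPM. Knockout replicate 1 was above, and knockout replicates 2 and 3 below, all wild type libraries. The fitted log2 fold change of Tnf was -0.11 ± 0.26 (SE, edgeR; -0.10 in the authors' deposited table), with -0.51 without knockout replicate 1 and 0.18 with library totals as the only scaling.

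Ptgs2, which encodes the inducible cyclooxygenase that makes the precursor of prostaglandins, had 136, 152 and 84 counts in wild type and 38, 34 and 36 in knockout libraries. The lowest wild type library, replicate 3 at 3.64 CPM, was above the highest knockout library, replicate 3 at 2.88 CPM. The means were 5.24 ± 1.42 and 2.21 ± 0.582 CPM (SD, n = 3), and the fitted log2 fold change was -1.27 ± 0.26 (SE, edgeR; -1.25 with a standard error of 0.30 in the authors' deposited table). It lay between -1.47 and -0.98 over the 14 other settings.

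The sensors differed from each other. Cd14 had 278, 272 and 222 counts in wild type and 383, 376 and 331 in the shallower knockout libraries. That is 13, 10.3 and 9.63 CPM in wild type and 19.7, 19.9 and 26.5 CPM in knockout, with all knockout libraries higher. Its fitted log2 fold change was 1.00 ± 0.15 (SE, edgeR; 1.02 with a standard error of 0.18 in the authors' deposited table). Nlrp3, the inflammasome sensor, was at 3, 10 and 5 counts in wild type and 10, 1 and 3 in knockout libraries. The groups overlapped, with both the highest and the lowest CPM in knockout libraries. Its knockout level was 109% of wild type with a 95% counting interval of 50.0 to 231%, and a difference within that interval was not detectable at this depth. The interval leaves out the spread between libraries, 0.0530 to 0.515 CPM in knockout, so larger differences could be missed as well.

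**Figure D2:**
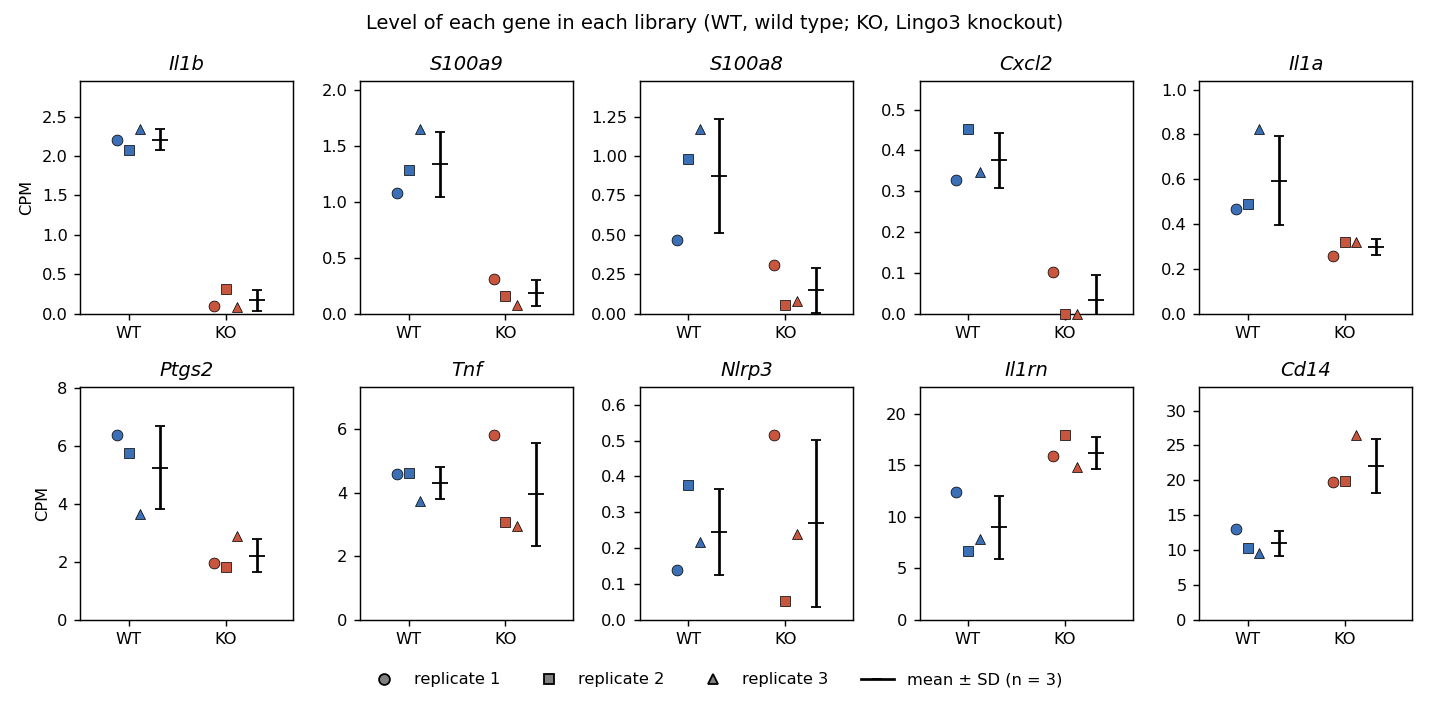
Level of each of the 10 genes in CPM (y axes from 0, scaled per gene) in the 3 wild type and 3 knockout libraries, with a symbol per replicate and the mean ± SD beside the points. Il1b, S100a9, S100a8, Cxcl2, Il1a and Ptgs2 are lower in every knockout library, Il1rn and Cd14 higher in every knockout library, and Tnf and Nlrp3 overlap.

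Of the 10 genes, 6 were lower and 2 higher in all knockout than in all wild type libraries, and 2 overlapped. Of the 29129 genes with any count, 24.6% separated the groups in one direction or the other, as did 35.6% of the 16856 tested genes. Only 6 of the 10 had enough counts for the fit across all genes, and 5 of them were past its threshold of an adjusted p under 0.05, where 15.4% of 16856 tested genes were. These 5 were Il1b, S100a9 and Ptgs2, lower, beside 5.97% of all tested genes, and Il1rn and Cd14, higher, beside 9.43%. Since this contrast was known when the genes were chosen, and S100a9 and Il1b entered the fit through their wild type libraries, nothing is read from either count. Il1rn was no longer past it once wild type replicate 3 or any knockout library was left out. Of the 6 fitted genes, 5 kept the sign of their fold change in each other setting that fitted them (13 for S100a9 and 14 for the others), and Tnf did not. In bulk RNA, fewer cells of a kind and less of a transcript per cell cannot be told apart.

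**Figure D3:**
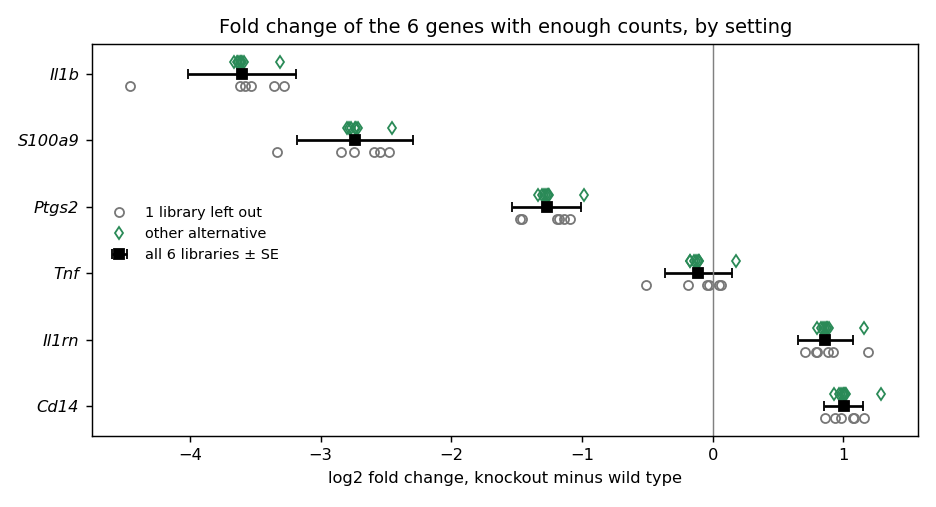
Log2 fold change, knockout minus wild type (x axis), of the 6 genes with enough counts for the fit, as squares with their SE for all 6 libraries, as circles with 1 library left out and as diamonds for the other alternatives. Tnf alone crosses 0, between -0.51 and 0.18, and Il1b ranges most, from -4.46 to -3.28.

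The order of the transcripts also differed between the genotypes. Per kilobase of merged exon, wild type libraries had the highest level for Cd14, at 6.33 ± 1.04 CPM per kb (SD, n = 3), followed by Tnf (2.63 ± 0.310), S100a9 (2.56 ± 0.556), Il1rn (1.62 ± 0.553), S100a8 (1.26 ± 0.524), Il1b (1.16 ± 0.0704) and Ptgs2 (1.15 ± 0.310). Il1a (0.301 ± 0.101), Cxcl2 (0.182 ± 0.0325) and Nlrp3 (0.0603 ± 0.0298) came last. Cd14 stood clear of Tnf in every wild type library, Ptgs2 clear of Il1a, Il1a clear of Cxcl2 and Cxcl2 clear of Nlrp3, while the neighbours from Tnf down to Ptgs2 overlapped. In knockout, Cd14 was again first at 12.7 ± 2.21 CPM per kb (SD, n = 3), Il1rn came next at 2.93 ± 0.287 and overlapped Tnf at 2.41 ± 0.987, and Ptgs2 at 0.483 ± 0.127 followed. Then came S100a9, S100a8, Il1a, Il1b, Nlrp3 and Cxcl2, from 0.350 down to 0.0166 CPM per kb, each overlapping the next. Il1b thus moved from the sixth to the eighth place and Il1rn from the fourth to the second. The place of Il1b in knockout rests on 2, 6 and 1 counts among overlapping neighbours. That of Il1rn depends on which of its isoforms are used, as its ratio to Il1b does.

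Markers of myeloid cells and lymphocytes were read beside these genes. Of the 18 neutrophil markers, 3 had enough counts to test (Ly6g, Csf3r and Itgam). Of these 0 passed in edgeR, with 0 also at an unadjusted p under 0.05 and 0 by DESeq2. Once knockout replicate 2 was left out, 1 of them rose (Itgam, an integrin gene shared by myeloid cells). The granule genes Mpo and Elane and the neutrophil gene Stfa2l1 had 0 counts in every library. Ly6g stood at 13.2 CPM in knockout replicate 1, where Itgam was higher at 14.1 CPM, and at 27.6 to 78.5 CPM in the other 5 libraries, where it held most of the list. The other 17 markers summed to 7.72 to 8.74 CPM in wild type and 5.36 to 17.6 CPM in knockout. The receptor of the Cxcl2 product, Cxcr2, had 3, 3 and 9 counts in wild type and 1, 0 and 0 in knockout libraries. Trem1 had 6, 5 and 6 against 1, 0 and 1 counts, and Retnlg 15, 5 and 10 against 3, 1 and 2. Of the detected markers too low to test, Cxcr2, Retnlg, Mmp8, Mmp9, Fpr1 and Trem1 had lower mean CPM in knockout. Ngp, Camp, Ltf, Fpr2, Prtn3 and Ctsg had higher mean CPM there, at 0 to 9 counts per library. Ltf had 6, 9 and 0 against 5, 3 and 3 counts, and Ctsg 1, 0 and 0 against 0, 1 and 0. The direction of Ltf and Ctsg thus rests on the scaling. The 23 markers of monocytes, macrophages and dendritic cells summed to 182 to 189 CPM in wild type and to 281, 102 and 186 CPM in knockout replicates 1, 2 and 3. Mertk and Lyz2 held most of this sum, with Mertk alone at 73.1 to 84.7 CPM in wild type and 46.7 to 56.9 CPM in knockout. Of the 17 tested, 4 fell in edgeR (Mertk, Fcer1g, Ccr2 and Itgax). Leaving out knockout replicate 1 gave 6 that fell, and DESeq2 gave 5 that fell and 1 that rose. Leaving out wild type replicate 3, knockout replicate 2 or knockout replicate 3 left 2 that fell. Leaving out knockout replicate 2 also gave 3 that rose (Adgre1, C1qa and C1qc). The macrophage genes Adgre1 and C1qa were at 8.70 and 8.65 CPM in knockout replicate 1 against 1.87 to 2.60 CPM over both genes in wild type. Among knockout libraries, Tnf, Nlrp3, S100a8, S100a9 and Cxcl2 were highest in this same library, with S100a8, S100a9 and Cxcl2 at 6, 6 and 2 counts. Il1a, Il1b, Il1rn, Ptgs2 and Cd14 were highest in another knockout library. The 15 T cell markers summed to 302 to 359 CPM in wild type and 106 to 185 CPM in knockout, and 13 fell in edgeR. The part of these cells in the levels of the 10 genes was not tested.

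Around the 10 genes, 8 lists of pathway genes held 149 genes, of which 109 had enough counts, and 4 rose while 13 fell (edgeR, Benjamini-Hochberg adjusted over all 16856 genes). These 17 are 15.6% of the genes tested in the lists, beside 15.4% of all genes, and the median log2 fold change of the 109 was -0.08, beside -0.03 over all genes. By direction, 9.43% of all tested genes rose and 5.97% fell, whereas more of the list genes fell than rose. With wild type replicate 1 left out, 9 rose and 8 fell, and with knockout replicate 3 left out, 2 rose and 3 fell. With either replicate 2 left out, 7 fell. The median beside these counts is no test of the lists.

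Among the ligands and receptors of the interleukin 1 family, 1 of 10 tested genes rose and 1 fell, with a list median of -0.20. With wild type replicate 1 left out 2 rose, with knockout replicate 1 left out 2 fell, and with wild type replicate 2 or knockout replicate 3 left out 0 fell. Il1r1, the receptor through which interleukin 1 alpha and beta signal, rose from 9.09 ± 0.934 to 15.7 ± 2.42 CPM (SD, n = 3), or by 0.79 ± 0.14 (SE) on the log2 scale, with an edgeR adjusted p of 0.00469. It was past the threshold in all 14 other settings (adjusted p 1.01e-06 to 0.0175). Its co-receptor Il1rap had 4.97 ± 1.11 and 7.47 ± 1.43 CPM (SD, n = 3), which did not pass (edgeR adjusted p = 0.0692), but did without wild type replicate 1 (0.0362). The decoy receptor gene Il1r2 had 5, 7 and 7 counts in wild type and 0, 3 and 0 in knockout libraries, too few to test. Il18r1, the receptor chain for interleukin 18 on lymphocytes, fell by 1.37 on the log2 scale (edgeR adjusted p = 0.0229), a call lost without wild type replicate 2 (0.0567) or knockout replicate 3 (0.0679). The cytokine genes Il18 and Il33 had log2 fold changes of -0.16 and -0.68 (edgeR adjusted p = 0.724 and 0.275). Il1r1 and Il1rn thus stood higher in the same libraries in which Il1b and Il1a stood lower.

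Of the genes whose products mature interleukin 1 beta, Casp1 and Pycard had far more counts than Nlrp3 in both genotypes. Of 19 tested inflammasome and pyroptosis genes, 1 passed (list median 0.02). Casp1, the protease that cuts the precursor, was at 90.7 ± 5.46 and 89.9 ± 13.9 CPM (SD, n = 3), which is -0.01 ± 0.12 (SE) on the log2 scale, with an edgeR adjusted p of 0.949. The adaptor gene Pycard was at 71.4 ± 3.15 and 81.7 ± 7.75 CPM (SD, n = 3), which is 0.19 ± 0.10 (SE) on the log2 scale, with an edgeR adjusted p of 0.203. Nlrp1b, the sensor gene that passed, fell by 0.37 on the log2 scale (edgeR adjusted p = 0.0477), and was not past the threshold when any of the 6 libraries was left out (0.0681 to 0.171). With wild type replicate 1 left out, 2 genes of the list rose.

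In receptor signalling, 1 of 27 tested genes rose and 1 fell, both kinases or kinase-like adaptors downstream of IL-1R1 and the Toll-like receptors. Irak1 rose by 0.34 (edgeR adjusted p = 0.0274) and Irak2 fell by 0.52 on the log2 scale (edgeR adjusted p = 0.0121). Irak1 left the threshold when replicate 2 or 3 of either genotype was dropped (highest edgeR adjusted p = 0.0906), and Irak2 stayed past it whichever library was dropped. Dropping wild type replicate 1 gave 2 genes of this list that rose. The partners of CD14 in sensing lipopolysaccharide, Tlr4 and Ly96, had log2 fold changes of 0.23 ± 0.18 and -0.02 ± 0.20 (SE), with edgeR adjusted p-values of 0.426 and 0.956. Tlr4 passed without wild type replicate 1 (edgeR adjusted p = 0.0104). The receptor genes for tumour necrosis factor, Tnfrsf1a and Tnfrsf1b, had -0.32 and -0.17 (edgeR adjusted p = 0.0634 and 0.357).

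Among NF-kB factors and their feedback inhibitors, 4 of 19 tested genes passed, all 4 falling, with a list median of -0.26. Nfkbiz, an inducible nuclear regulator of NF-kB target genes, fell from 195 ± 19.6 to 111 ± 4.75 CPM (SD, n = 3), which is -0.81 ± 0.11 (SE) on the log2 scale, with an edgeR adjusted p of 0.00150, and passed in all 14 other settings. Nfkbie fell by 0.88, Zfp36, whose product degrades cytokine transcripts, by 0.88, and Tnip1 by 0.40 on the log2 scale (edgeR adjusted p = 0.0294, 0.0471 and 0.0340). Nfkbie left the threshold when knockout replicate 2 or 3, or else wild type replicate 1 or 2, was dropped (highest edgeR adjusted p = 0.139). Zfp36 did so when wild type replicate 2 or any knockout library was dropped (0.161), and Tnip1 when wild type replicate 1 or 3 or any knockout library was (0.110). Nfkbia, the classical inhibitor, was at 68.2 ± 3.17 and 49.0 ± 11.7 CPM (SD, n = 3) and did not pass (edgeR adjusted p = 0.0616), but did without knockout replicate 1 (0.00942). Of this list, 2 still fell when wild type replicate 1 or 2 was dropped, and 1 when knockout replicate 2 or 3 was.

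The other neutrophil chemokines had few counts. Of 12 chemokine and receptor genes only Ccl3 and Ccl4 had enough counts, and Ccl4, a chemokine that cytotoxic lymphocytes also make, fell from 3.50 ± 0.384 to 1.32 ± 0.709 CPM (SD, n = 3; log2 fold change -1.42, edgeR adjusted p = 0.0216). It left the threshold when wild type replicate 1 or 2 or knockout replicate 3 was dropped (highest edgeR adjusted p = 0.0721), and when knockout replicate 1 was dropped both Ccl3 and Ccl4 fell. Cxcl1, whose product uses the same receptor as that of Cxcl2, had 11, 2 and 1 counts in wild type and 6, 9 and 2 in knockout libraries. Cxcl5 had 21, 9 and 8 counts in wild type and 0, 6 and 2 in knockout libraries.

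Around Ptgs2, 2 of 17 tested prostaglandin and leukotriene genes rose and 1 fell (list median 0.09). Pla2g4a, the phospholipase that frees arachidonic acid for cyclooxygenases, rose by 0.61 on the log2 scale (edgeR adjusted p = 0.00844), in the same libraries in which Ptgs2 was lower, and passed in all 14 other settings. Ptges3 rose by 0.51 (edgeR adjusted p = 0.0138; 0.0648 without knockout replicate 3). Tbxas1, the thromboxane synthase gene, fell by 0.65 (edgeR adjusted p = 0.0141), a call lost without wild type replicate 3 (0.0631) or knockout replicate 3 (0.0606). When wild type replicate 2 or 3 was dropped, 2 genes of the list fell, and when knockout replicate 3 was, 1 rose and 0 fell. The constitutive cyclooxygenase gene Ptgs1 was at 9.94 ± 3.37 and 6.89 ± 1.17 CPM (SD, n = 3; log2 fold change -0.52 ± 0.25 (SE), edgeR adjusted p = 0.198), and passed without wild type replicate 3 (0.0253). Ptges, the inducible synthase, and Hpgd, which degrades prostaglandins, had -0.24 and -0.01 (edgeR adjusted p = 0.581 and 0.951).

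In the list of S100 genes outside the calprotectin pair, which also holds Ager, the gene of their receptor RAGE, 1 of 10 tested genes passed (list median -0.06), and with knockout replicate 1 left out 1 gene rose as well. S100g, a calcium-binding protein of absorptive epithelium and not an alarmin, fell from 108 ± 17.3 to 41.0 ± 5.10 CPM (SD, n = 3), which is -1.39 ± 0.13 (SE) on the log2 scale, with an edgeR adjusted p of 0.000785, and passed in all 14 other settings. Of 18 other inflammatory cytokines, 13 had too few counts to test, Il6 with 0 to 3 per library among them. Of the other 5, 3 fell (list median -1.15). Csf1, the macrophage growth factor gene, fell by 1.30, the lymphotoxin gene Ltb by 1.15 and Tgfb1 by 0.87 on the log2 scale (edgeR adjusted p = 0.0265, 0.00972 and 0.0285). Ltb left the threshold when knockout replicate 3 was dropped (0.0548). Tgfb1 did so when replicate 2 or 3 of either genotype was (highest edgeR adjusted p = 0.112), and Csf1 when wild type replicate 1 or 2 or any knockout library was (0.127). With either replicate 2 dropped 1 gene of this list fell, and with knockout replicate 3 dropped 0 did.

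**Figure D4:**
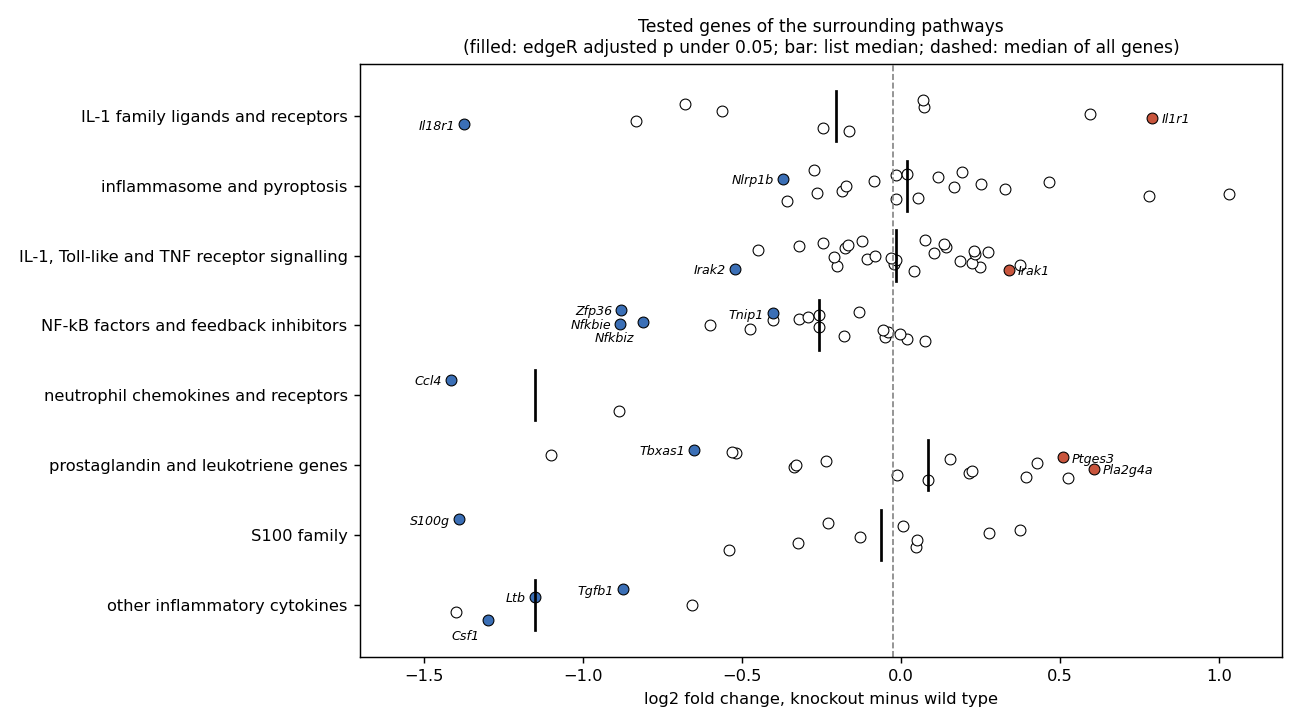
Log2 fold change, knockout minus wild type (x axis), of each tested gene in the 8 pathway lists (rows), filled where edgeR's adjusted p was under 0.05 and named there, with a bar at each list's median and a dashed line at the median of all genes. The dashed line stands at -0.03, and of the filled points Il1r1 is the highest at 0.79 and Ccl4 the lowest at -1.42.

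Among 12406 protein-coding genes with a mean of at least 1 CPM, those whose log2 CPM followed Il1b most closely over the 6 libraries were Nim1k (Pearson r = 0.995), Amigo3 (0.992), Tango2 (0.991), Kctd18 (0.991) and Trim12a (0.988). The coefficients carry the difference between the genotypes that all of them share, and depth and scaling as well, so they are given as a description. Their fold changes were smaller, from -1.07 for Nim1k to -0.23 for Amigo3 on the log2 scale. Among the other fitted genes of inflammation, r with Il1b was 0.934 for S100a9, 0.804 for Ptgs2, 0.192 for Tnf, -0.787 for Il1rn and -0.945 for Cd14.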

How the data were processed

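Total RNA of 6 libraries was sequenced after a stranded, ribosome-depleting preparation, per the labels' protocols. Tools named by the submitters' processing notes are Trimmomatic 0.39, STAR, HTSeq and DESeq2, with build GRCm38. Neither their other versions nor the strand setting or annotation release appear in the sources used here. The deposited counts are raw reads per Ensembl gene. HTSeq's summary lines, 58.4% of reads in wild type and 55.7% in knockout on average, stayed out. Per the file headers, the authors' second table is a DESeq2 comparison with a log2 fold change (positive when higher in knockout), a score (the Wald statistic) and p-values, of which only the log2 values are printed. Its deposited signal per library is the raw count times 1 factor.

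Of 46078 genes, 45229 had an entry in GENCODE M21. From the counts, genes were filtered with filterByExpr (minimum count 10, minimum total 15), scaled by TMM and tested 2-sided for genotype in edgeR 4.0.16 under R 4.3.3 (robust quasi-likelihood, Benjamini-Hochberg, threshold 0.05). A standard error is the log2 fold change over the root of F. Log2 CPM took a prior count of 2. Knockout levels in percent come from summed counts, with exact 95% intervals. These and the floor of 3 counts cover counting error only. The fit was also run on simulated counts, with an outcome not given here, so that run does not vouch for the adjusted p-values. Alternatives were other scalings, other filters, DESeq2 1.42.0, a replicate block, nuclear protein-coding genes and each library left out.

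The 10 genes and all lists were chosen with earlier results of these data known. The text names the 10, 18 preset partners, up to 3 called genes per list and direction, the highest and the undetected markers, and the 5 genes most like Il1b. Tnip1, Ccl3, Il6 and the other markers were named after their values were seen.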

Additional observations from a re-analysis of the deposited data

How the results depend on the processing

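Counts of called genes moved most with the scaling and with single libraries. Over all genes, 1589 were higher and 1007 lower in knockout. With library totals as the only scaling, which shifted the median over all genes by 0.28 on the log2 scale, 5415 were higher and 420 lower. With upper-quartile factors 45.4% of called genes were higher, against 61.2% with TMM and 92.8% with library totals. Without a filter 1675 were lower. Leaving out 1 library gave 711 to 1677 higher and 413 to 1070 lower. In the 8 pathway lists, where 4 were higher and 13 lower, library totals gave 29 and 6, no filter gave 10 and 21, and upper-quartile factors gave 20 lower. Leaving out 1 library gave 2 to 9 higher and 3 to 15 lower. The causes were not tested.

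Of the 10 genes, the number past the threshold was 5 and stayed within 1.5 times that in the alternatives. DESeq2 gave no adjusted p for S100a9. With library totals Irak2, Nfkbie, Zfp36, Tnip1, Tbxas1, Tgfb1 and Nlrp1b were no longer past the threshold. Il1rap, Pycard and Tlr4 came past it there (edgeR adjusted p = 0.0058, 0.00272 and 0.0144). Upper-quartile factors brought Tnfrsf1a past it (edgeR, 0.0329) and lost Irak1 (0.0574). Tnfrsf1a also passed with a mean CPM of at least 1 (0.0497) and with nuclear protein-coding genes only (0.0371). Without a filter Il1rap, Ptgs1 and Nfkbia passed (0.0138, 0.0214 and 0.00048). By DESeq2 Nfkbia passed (0.0291) and Nlrp1b did not (0.096). Depth limits Il1a, S100a8, Cxcl2 and Nlrp3, which were not fitted.

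Same-numbered libraries of the genotypes did not deviate together (correlations -0.01, -0.12 and -0.10, against -0.12 to 0.22 for differently numbered ones). With 3 libraries per group these values cannot show whether the numbers mark pairs, and the main fit used no pairing. A replicate block gave 1193 higher and 868 lower genes, 3 and 12 in the pathway lists, and 5 of the 10 genes past the threshold.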

Other observations

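Levels of further cell types varied beside the 10 genes. The 8 mast cell markers summed to 56.6 to 62.9 CPM in wild type and 82.3 to 88.3 CPM in knockout. Most of it was Kit, the only one of the 5 tested that rose (edgeR). Without Kit the groups overlapped, at 5.84 to 9.40 CPM in wild type and 7.05 to 11.8 CPM in knockout. The 8 B cell markers, led by Ms4a1, summed to 24.1 to 61.4 CPM in wild type and 13.8 to 18.7 CPM in knockout. Of them 3 fell in edgeR and 6 by DESeq2. In edgeR 6 fell when wild type replicate 1 was dropped, 2 when wild type replicate 2 was and 1 when knockout replicate 2 or 3 was. The 12 fibroblast, muscle and endothelial markers, led by Dcn, summed to 347 to 1003 CPM in wild type and 232 to 472 CPM in knockout. Of the 11 tested, 3 fell in edgeR, and 5 when wild type replicate 3 was dropped. The 5 erythroid markers, led by Hbb-bs, summed to 377 to 636 CPM in wild type and 538 to 1249 CPM in knockout, the highest in knockout replicate 1.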
